A study of Mus musculus with 26 samples.

Results

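The matrix metalloproteinase (MMP) genes Mmp2, Mmp3, Mmp9, Mmp11, Mmp13, Mmp14, Mmp16, Mmp19 and Mmp23 were followed in mouse knee joints after destabilization of the medial meniscus (DMM), a surgical model of osteoarthritis. These are 9 genes of the 18193 that have a probe set of their own on the array, and 18 of its 45101 probe sets carry 1 of these 9 symbols and no other. A probe set is a group of short oligonucleotides read together for 1 transcript. Where a gene had several, the one with the highest mean signal over all arrays stands for the gene, and the others are given beside it.

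In DMM joints the ligament that anchors the medial meniscus had been cut, sham joints had been opened without that cut, and time 0 joints were unoperated. Operated joints were taken 2, 4, 8 or 16 weeks later. All mice were male C57BL/6, operated at 12 weeks of age, so that they were 14, 16, 20 and 28 weeks old at tissue collection and 12 weeks old at time 0. Each array held RNA pooled from 3 mice, taken from a block of the medial joint compartment with cartilage and subchondral bone of the tibial plateau and femoral condyle, meniscus, synovium, joint capsule and ligaments. There were 26 arrays, with 3 pools in each of 8 conditions and 2 pools (numbers 2 and 3) for DMM at 2 weeks. The block is a mixture of tissues, so that more cells of a type and more RNA per cell cannot be told apart in any result below.

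MMPs are zinc-dependent endopeptidases that are made as inactive proenzymes and cut proteins of the extracellular matrix. Collagenases open the triple helix of fibrillar collagen, gelatinases degrade the denatured chains, stromelysins cut proteoglycans and other MMP proenzymes, and membrane-type MMPs act at the cell surface, where Mmp14 activates the proenzyme of Mmp2. Tissue inhibitors of metalloproteinases (TIMPs) bind the active enzymes. In the joint these enzymes are made by chondrocytes, synovial fibroblasts, osteoblasts, osteoclasts and leukocytes, and Mmp13 is the main collagenase of mouse cartilage and bone.

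The values are deposited log2 signals, in which a difference of 1 is a doubling of the signal. The main test, limma, covered the 22489 probe sets (11511 genes) whose mean log2 signal exceeded 7.93, and a gene is called higher or lower when its adjusted p is under 0.05. Of the 9 genes, 7 passed this brightness filter. Mmp11 (mean 7.52) and Mmp19 (mean 7.38) did not, and their tests come from a fit of all 45037 probe sets that are not controls. Errors beside log2 ratios are standard errors of the fit, and errors beside means are standard deviations over pools. Array medians lay between 7.90 and 7.95, and an array correlated with the others of its condition at 0.965 to 0.992 on average, lowest for sham pools 1 and 3 at 2 weeks. The p-values set differences of condition means against the spread between pools of 3 mice, estimated over all 9 conditions. For 3 pools against 3 the smallest exact permutation p is 0.1, and for 2 pools against 3 it is 0.2.

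Promoter sequence was at hand for 5 of the 9 genes (Mmp3, Mmp11, Mmp13, Mmp14 and Mmp23, from RefSeq on GRCm38.p6), and was not used here for Mmp2, Mmp9, Mmp16 and Mmp19. Each window of 300 bases runs from 250 bases before the transcript start to 50 bases after it. Windows of the gene with the largest response to DMM (Mmp3), of the main collagenase (Mmp13) and of the membrane-type enzyme (Mmp14) are shown to set genes with and without an AP-1 sequence side by side. Capitals mark the AP-1 sequence TGANTCA, the TATA box TATAAA and the GC box GGGCGG, each searched on both strands.
Mmp3, chr9:7445572-7445871, plus strand: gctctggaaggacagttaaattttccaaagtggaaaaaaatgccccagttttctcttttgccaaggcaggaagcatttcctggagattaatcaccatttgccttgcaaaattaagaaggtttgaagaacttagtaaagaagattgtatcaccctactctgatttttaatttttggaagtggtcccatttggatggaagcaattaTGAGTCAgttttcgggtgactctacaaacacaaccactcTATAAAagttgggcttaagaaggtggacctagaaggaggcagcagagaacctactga
Mmp13, chr9:7272264-7272563, plus strand: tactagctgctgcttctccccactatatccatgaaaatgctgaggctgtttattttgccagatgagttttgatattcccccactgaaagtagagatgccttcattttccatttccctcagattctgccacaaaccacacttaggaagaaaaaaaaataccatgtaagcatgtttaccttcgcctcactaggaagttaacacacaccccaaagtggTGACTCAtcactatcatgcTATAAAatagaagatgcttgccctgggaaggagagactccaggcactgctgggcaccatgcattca
Mmp14, chr14:54431348-54431647, plus strand: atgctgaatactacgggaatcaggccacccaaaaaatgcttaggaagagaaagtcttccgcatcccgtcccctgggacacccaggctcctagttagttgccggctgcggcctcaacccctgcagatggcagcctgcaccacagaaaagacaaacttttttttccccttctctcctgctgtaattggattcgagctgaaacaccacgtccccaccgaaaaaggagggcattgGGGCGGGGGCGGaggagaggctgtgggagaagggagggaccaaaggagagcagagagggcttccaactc
The Mmp3 window holds TGAGTCA from 46 to 40 bases before the start and TATAAA from 7 to 2 bases before it. The Mmp13 window holds TGACTCA from 35 to 29 bases before the start, TATAAA from 16 to 11 bases before it, and the RUNX sequence AACCACA from 119 to 113 bases before it. The Mmp14 window holds neither AP-1 nor TATA box sequence, and carries 2 adjoining GC boxes from 19 to 8 bases before the start. Over all 32851 promoter windows of this length, 7.81% hold TGANTCA, 13.6% TATAAA, 35.7% GGGCGG and 5.27% AACCACA. The Mmp11 window holds 4 GC boxes, and of 2 Mmp23 windows 1 holds 2 GC boxes and the other none. A match describes these letters only, and binding of a factor was not measured.

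Between DMM and sham joints, most calls in the family were made 4 weeks after surgery. Of the 7 genes past the brightness filter, 5 rose in DMM joints relative to sham joints (Mmp3, Mmp2, Mmp14, Mmp13 and Mmp23), none fell, and 2 (Mmp9 and Mmp16) were not called, where 13.2% of all genes past the filter were higher. In the fit of all probe sets the dim genes Mmp11 and Mmp19 were higher too, where 9.17% of all genes were. The median log2 ratio was 0.77 over the 7 genes and -0.021 over all genes past the filter. All 7 genes called had every DMM pool above every sham pool, as had 16.5% of all genes. With any 1 of the 6 pools left out, the same 5 genes past the filter were called. The 9 genes were chosen with earlier results of these data known, so that counts beside shares of all genes are descriptions.

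**Figure D1:**
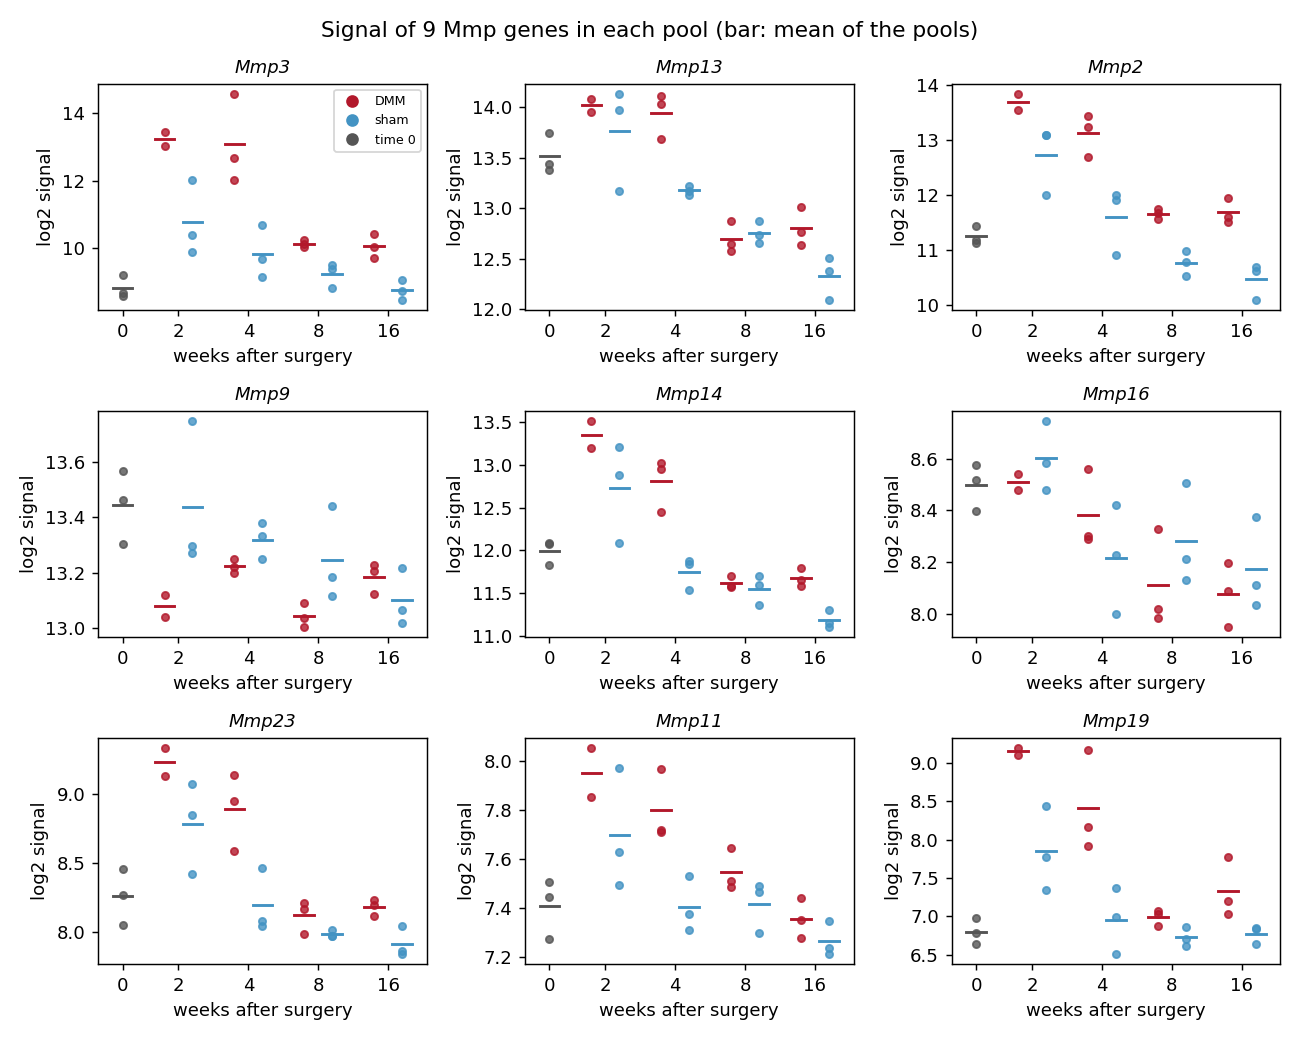
Log2 signal (vertical axis, own scale per gene) of the 9 genes in each pool by weeks since surgery, with DMM, sham and time 0 pools as coloured points and bars at the mean of the pools. Mmp3 spans 8.47 to 14.57 over the 26 arrays, and Mmp9 spans 13.01 to 13.75.

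Mmp13, the collagenase, was called higher in DMM joints at 4 weeks. Its log2 signals were 13.68, 14.03 and 14.11 in DMM pools, against 13.22, 13.13 and 13.17 in sham pools. The groups did not overlap, and the sham pools lay close together. The log2 ratio was 0.77 ± 0.18, a 1.70-fold higher signal (limma, adjusted p = 0.00673). At 2 weeks Mmp13 read 13.95 and 14.08 in DMM pools, against 13.17, 13.98 and 14.13 in sham pools, so that only the first sham pool was low. At 8 weeks the values were 12.64, 12.57 and 12.87 in DMM pools, against 12.66, 12.88 and 12.74 in sham pools, which overlap throughout. At 16 weeks they were 13.01, 12.77 and 12.63 in DMM pools, against 12.51, 12.09 and 12.38 in sham pools. These groups were apart again, with a log2 ratio of 0.48 ± 0.18 that did not pass the test over all genes (adjusted p = 0.546, unadjusted p under 0.05).

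Mmp3 (stromelysin 1), which cuts proteoglycans and activates other MMP proenzymes, had the largest log2 ratio of the 9 genes at 2, 4 and 16 weeks. At 4 weeks its log2 signals were 12.02, 14.57 and 12.68 in DMM pools, against 9.68, 9.15 and 10.67 in sham pools. The second DMM pool stood far above the others, and the lowest DMM pool still lay above the highest sham pool. The log2 ratio was 3.26 ± 0.52 (95% interval 2.18 to 4.33, adjusted p = 0.000827), a 9.55-fold higher signal. Without the second DMM pool the fold was 5.72 (log2 ratio 2.52, adjusted p = 0.0074), the lowest with any 1 pool left out, and the highest was 13.8. At 2 weeks Mmp3 read 13.43 and 13.02 in DMM pools, against 9.88, 12.01 and 10.38 in sham pools. The groups did not overlap and the sham pools were widely spread, with a log2 ratio of 2.47 ± 0.58 (adjusted p = 0.0332). The ratio was 3.10 without the second sham pool (adjusted p = 0.00799). Without the first sham pool it was 2.03, the lowest with any 1 pool left out, and was not called.

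At 8 weeks Mmp3 read 10.11, 10.04 and 10.23 in DMM pools, against 9.39, 9.50 and 8.80 in sham pools. At 16 weeks it read 9.70, 10.04 and 10.42 in DMM pools, against 8.47, 8.72 and 9.06 in sham pools. At both times all DMM pools were above all sham pools, while neither ratio was called. It was 0.90 ± 0.52 (adjusted p = 0.479) at 8 weeks and 1.30 ± 0.52 (adjusted p = 0.58) at 16 weeks. Mmp11 (stromelysin 3), which is activated inside the cell by furin, was called at 4 weeks. At 4 weeks its log2 signals were 7.72, 7.71 and 7.97 in DMM pools, against 7.53, 7.31 and 7.38 in sham pools. The groups were apart, with a log2 ratio of 0.39 ± 0.11 (adjusted p = 0.0188), and the call was lost without the second sham pool (adjusted p = 0.103) or the third DMM pool (adjusted p = 0.111). At 2, 8 and 16 weeks the Mmp11 pools overlapped and its ratios were 0.25 ± 0.12, 0.13 ± 0.11 and 0.090 ± 0.11.

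Of the gelatinases, Mmp2 was called at 4 weeks and Mmp9 was not, and the difference between these genes was not tested. Mmp2 (gelatinase A), an enzyme of fibroblasts and other stromal cells, read 12.70, 13.44 and 13.24 in DMM pools at 4 weeks, against 11.99, 10.90 and 11.91 in sham pools. The groups did not overlap, and the log2 ratio was 1.52 ± 0.28 (2.88-fold, adjusted p = 0.00152). At 2 weeks Mmp2 read 13.55 and 13.84 in DMM pools, against 11.99, 13.08 and 13.10 in sham pools, with a ratio of 0.97 ± 0.31 (adjusted p = 0.093). At 8 weeks it read 11.74, 11.67 and 11.56 in DMM pools, against 10.77, 10.97 and 10.52 in sham pools. At 16 weeks it read 11.94, 11.51 and 11.60 in DMM pools, against 10.09, 10.69 and 10.61 in sham pools. Every DMM pool exceeded every sham pool of its week at all 4 times, and the later ratios were not called. They were 0.90 ± 0.28 (adjusted p = 0.214) at 8 weeks and 1.22 ± 0.28 (adjusted p = 0.114) at 16 weeks. A second Mmp2 probe set gave 1.69 ± 0.30 at 4 weeks (adjusted p = 0.00131), and the pair correlated at 0.998 over the 26 arrays.

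Mmp9 (gelatinase B), an enzyme of osteoclasts and neutrophils, ranged over only 0.74 on the log2 scale across the 26 arrays. At 2 weeks its log2 signals were 13.12 and 13.04 in DMM pools, against 13.27, 13.30 and 13.75 in sham pools. The DMM pools were the lower ones, and the ratio of -0.36 ± 0.11 was not called (adjusted p = 0.091). Of 10 other settings 3 called it lower, and ratios over all 10 ran from -0.32 to -0.45. A second, dimmer Mmp9 probe set had a ratio of -0.54 ± 0.12 at 2 weeks and was called lower (adjusted p = 0.0261), where 0.938% of genes past the filter were. The brighter set read 13.22, 13.20 and 13.25 in DMM pools at 4 weeks, against 13.33, 13.38 and 13.25 in sham pools. Its ratio was -0.096 ± 0.10 at 4 weeks (95% interval -0.31 to 0.12, and 0.048 after quantile normalization), -0.20 ± 0.10 at 8 weeks and 0.085 ± 0.10 at 16 weeks, and none of these was called. Averaged over the 4 weeks, the dimmer set was called lower (-0.17 ± 0.054, adjusted p = 0.037), where 6.57% of genes past the filter were, and the brighter set was not.

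Mmp14 (MT1-MMP), the membrane-bound collagenase that activates the Mmp2 proenzyme, was called at 4 weeks. It then read 12.45, 12.95 and 13.03 in DMM pools, against 11.88, 11.53 and 11.84 in sham pools. The groups were apart, and the log2 ratio was 1.06 ± 0.20 (2.08-fold, adjusted p = 0.00157). At 2 weeks it read 13.19 and 13.51 in DMM pools, against 12.09, 12.88 and 13.20 in sham pools, which overlap by a narrow margin (0.63 ± 0.22, adjusted p = 0.117). At 8 weeks the ratio was 0.062 ± 0.20 and the pools overlapped. At 16 weeks Mmp14 read 11.79, 11.66 and 11.59 in DMM pools, against 11.11, 11.30 and 11.15 in sham pools. These pools were apart with a ratio of 0.49 ± 0.20 that was not called (adjusted p = 0.579). The other 2 Mmp14 probe sets gave ratios of 1.24 ± 0.22 and 1.08 ± 0.16 at 4 weeks and were called there, and the set with a mean of 9.73 was also called at 2 weeks (0.71 ± 0.17, adjusted p = 0.0383).

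Mmp23, a membrane-anchored MMP that is shed by furin-type cleavage, was called at 4 weeks. Its log2 signals were then 8.58, 8.94 and 9.13 in DMM pools, against 8.46, 8.05 and 8.08 in sham pools. The groups did not overlap, and the ratio was 0.69 ± 0.15 (1.61-fold, adjusted p = 0.00406). At 2 weeks its ratio was 0.45 ± 0.17, at 8 weeks 0.13 ± 0.15 and at 16 weeks 0.27 ± 0.15, and none of these was called. A second Mmp23 probe set gave 0.54 ± 0.084 at 4 weeks (adjusted p = 0.00079). Mmp16 (MT3-MMP) was not called in any DMM and sham comparison, with ratios of -0.093 ± 0.14, 0.17 ± 0.12, -0.17 ± 0.12 and -0.095 ± 0.12 at 2, 4, 8 and 16 weeks. Its pools overlapped at all 4 times, and the interval at 4 weeks ran from -0.091 to 0.43. Of the 4 Mmp16 probe sets, the dimmest (mean 6.16) correlated with the brightest at only 0.366, against 0.73 and 0.88 for the others, and its ratio of 0.62 ± 0.12 at 16 weeks was not called either (adjusted p = 0.0683).

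Mmp19, which cuts basement membrane proteins and is made in synovium and other tissues, had ratios of a size close to those of Mmp2 at 2 and 4 weeks. At 2 weeks its log2 signals were 9.19 and 9.11 in DMM pools, against 7.35, 8.44 and 7.78 in sham pools. At 4 weeks they were 7.92, 9.16 and 8.17 in DMM pools, against 6.99, 6.51 and 7.37 in sham pools. Both pairs of groups were apart, with ratios of 1.30 ± 0.30 (adjusted p = 0.048) at 2 weeks and 1.46 ± 0.27 (2.75-fold, adjusted p = 0.00212) at 4 weeks. At 8 weeks Mmp19 read 7.04, 7.06 and 6.87 in DMM pools, against 6.70, 6.86 and 6.61 in sham pools. At 16 weeks it read 7.77, 7.20 and 7.03 in DMM pools, against 6.63, 6.85 and 6.84 in sham pools. The DMM pools were the higher ones at both times, and neither ratio was called (0.27 ± 0.27 and 0.56 ± 0.27). A second Mmp19 probe set was called too, with ratios of 0.82 ± 0.18 (adjusted p = 0.0408) at 2 weeks and 0.63 ± 0.16 (adjusted p = 0.0152) at 4 weeks. The 2-week call of the brighter set remained in only 1 of the 5 fits with a pool left out.

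**Figure D2:**
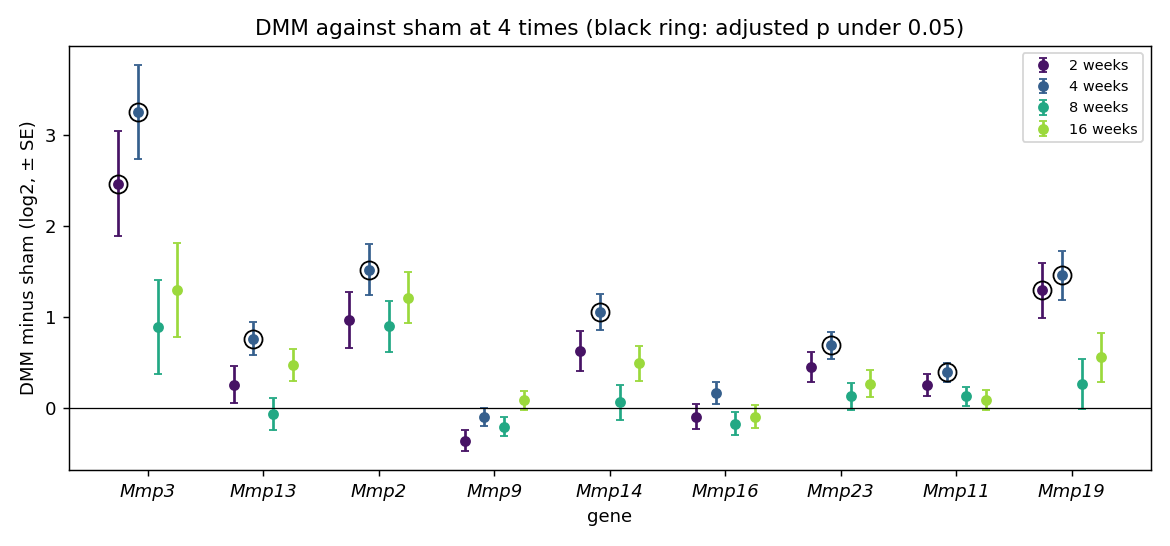
Log2 ratio of DMM to sham joints (vertical axis, ± standard error) for the 9 genes on the horizontal axis, by week, with a black ring where the adjusted p is under 0.05. Rings stand on 7 genes at 4 weeks, on Mmp3 and Mmp19 at 2 weeks, and on no gene at 8 or 16 weeks.

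Across the weeks, every DMM pool of Mmp2, Mmp3 and Mmp19 lay above every sham pool at all 4 times, as was the case for 0.984% of all genes. At 2 weeks 1 of the 7 genes past the filter was called higher (Mmp3), where 1.96% of genes past the filter were, and 5 had an unadjusted p under 0.05, as had 20.6% of genes past the filter. The count at 2 weeks was 0 without the first sham pool, when 0% of all genes past the filter were called, and 4 without the third sham pool (Mmp2, Mmp3, Mmp14 and Mmp23), when 9.25% were. Without either DMM pool 1 DMM pool is left, which is assumed to vary like those of the other conditions, and no count is read from it. For all 9 genes the first sham pool was the lowest of the 3 sham pools at 2 weeks. In the fit of all probe sets Mmp19 was also called at 2 weeks, where 0.83% of genes were higher.

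At 8 weeks limma called none of the 7 genes in DMM against sham, where 0% of genes past the filter were higher, and 1 (Mmp2) had an unadjusted p under 0.05, as had 12.3% of genes past the filter. All DMM pools lay above all sham pools for 3 of the 9 genes (Mmp2, Mmp3 and Mmp19), against 6.16% of all genes. Pools with the same number deviated together at 8 weeks (correlations of 0.477, 0.324 and 0.556). When only these 2 conditions were fitted with the pool number as a block, an alternative chosen after the values were seen, Mmp2 (0.90, adjusted p = 0.0104) and Mmp3 (0.90, adjusted p = 0.0444) were called, along with 0.877% of genes past the filter. At 16 weeks none of the 7 was called by limma, where 0.0521% of genes past the filter were higher, and 4 (Mmp2, Mmp3, Mmp13 and Mmp14) had an unadjusted p under 0.05, as had 8.23% of genes past the filter. At 16 weeks 6 of the 9 genes had all DMM pools above all sham pools (Mmp2, Mmp3, Mmp13, Mmp14, Mmp19 and Mmp23), against 10.1% of all genes.

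Averaged over the 4 weeks, 5 of the 7 genes rose in DMM joints relative to sham joints, where 12.5% of genes past the filter did. Mmp2 had the smallest adjusted p of these (1.15 ± 0.14, adjusted p = 3.2e-05), followed by Mmp3 (1.98 ± 0.27, adjusted p = 6.37e-05) and Mmp14 (0.56 ± 0.10, adjusted p = 0.000712). Mmp23 (0.38 ± 0.077) and Mmp13 (0.36 ± 0.093) were called as well, as were Mmp19 (0.90 ± 0.14) and Mmp11 (0.22 ± 0.055) in the fit of all probe sets, where 8.34% of genes rose. The brightest probe sets of Mmp9 (-0.14 ± 0.053, adjusted p = 0.0677) and Mmp16 (-0.048 ± 0.064) were not.

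A call at 4 weeks and none at 8 weeks does not by itself show that the weeks differ, so the difference of the 2 effects was tested. The DMM effect at 4 weeks minus that at 8 weeks was above 0 for all 9 genes. Of the 7 past the filter limma called none, where 1.42% of genes past the filter were called higher. An unadjusted p under 0.05 was found for 4 of the 7, and for 29.6% of genes past the filter. Among these 7 it was largest for Mmp3 (2.36 ± 0.73, adjusted p = 0.0694), Mmp14 (1.00 ± 0.28, adjusted p = 0.0575) and Mmp13 (0.83 ± 0.25, adjusted p = 0.0669). Without the first DMM pool at 4 weeks 4 of the 7 were called (Mmp3, Mmp13, Mmp14 and Mmp23), along with 13.6% of genes past the filter, and without the first sham pool at 8 weeks 2 were (Mmp13 and Mmp14), along with 17.4% of genes. No member was called in the 4-week effect minus the 2-week effect (limma, 0% of genes called, 0 members and 4.4% of genes at an unadjusted p under 0.05) or in the 16-week effect minus the 8-week effect (0% of genes called, 1 member and 10.9% of genes at an unadjusted p under 0.05).

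Time 0 gives the level before surgery. At 2 weeks after DMM 4 of the 7 genes were higher than at time 0, where 16.4% of genes past the filter were, and Mmp9 was lower, where 16.5% were. Mmp3 read 13.43 and 13.02 in DMM pools, against 9.21, 8.68 and 8.58 at time 0, a log2 ratio of 4.41 ± 0.58 (21.2-fold, adjusted p = 2.97e-05). Mmp2 read 13.55 and 13.84 in DMM pools, against 11.44, 11.13 and 11.17 at time 0, with a ratio of 2.45 ± 0.31 (adjusted p = 2.29e-05). The groups of both genes stood far apart. Mmp14 was 1.36 ± 0.22 higher (adjusted p = 0.000149) and Mmp23 0.97 ± 0.17 (adjusted p = 0.000264), and in the fit of all probe sets, where 10.8% of genes were higher, Mmp19 was 2.35 ± 0.30 and Mmp11 0.55 ± 0.12 higher. Mmp9 fell by 0.36 on the log2 scale (SE 0.11, adjusted p = 0.0209), a call that was lost without the third time 0 pool and without either DMM pool. Mmp13, with a ratio of 0.50 ± 0.20, was not called (adjusted p = 0.0668), except without the third time 0 pool and in 2 of 10 other settings.

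At 4 weeks after DMM the same 4 genes past the filter as at 2 weeks (Mmp2, Mmp3, Mmp14 and Mmp23) were higher than at time 0, where 7.87% of genes past the filter were. Mmp3 stood 4.27 ± 0.52 (adjusted p = 0.000113) and Mmp2 1.88 ± 0.28 (adjusted p = 0.000443) above time 0. Those 2 calls remained with any 1 pool left out (Mmp3 at 3.53 without the second DMM pool), while Mmp14 (0.81 ± 0.20) and Mmp23 (0.63 ± 0.15) were lost without the second time 0 pool and without DMM pool 2 or 3. In sham joints at 2 weeks only Mmp2 was higher than at time 0, where 1.63% of genes past the filter were. Its log2 signals were 11.99, 13.08 and 13.10 in sham pools, against 11.44, 11.13 and 11.17 at time 0, with a ratio of 1.48 ± 0.28 (adjusted p = 0.014). Mmp3 (1.93 ± 0.52) and Mmp14 (0.73 ± 0.20) had an adjusted p of 0.0592 each. Without the first sham pool 5 genes were called there, along with 16.2% of genes past the filter. None was called without sham pool 2 or 3 or time 0 pool 2 or 3. Over the fits with a pool left out, 2 to 3263 probe sets of the whole array were called there. At 4 weeks none of the 7 differed between sham and time 0 (limma, 1 of them and 14.9% of genes past the filter at an unadjusted p under 0.05), where 1.03% of genes past the filter were called in either direction.

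**Figure D3:**
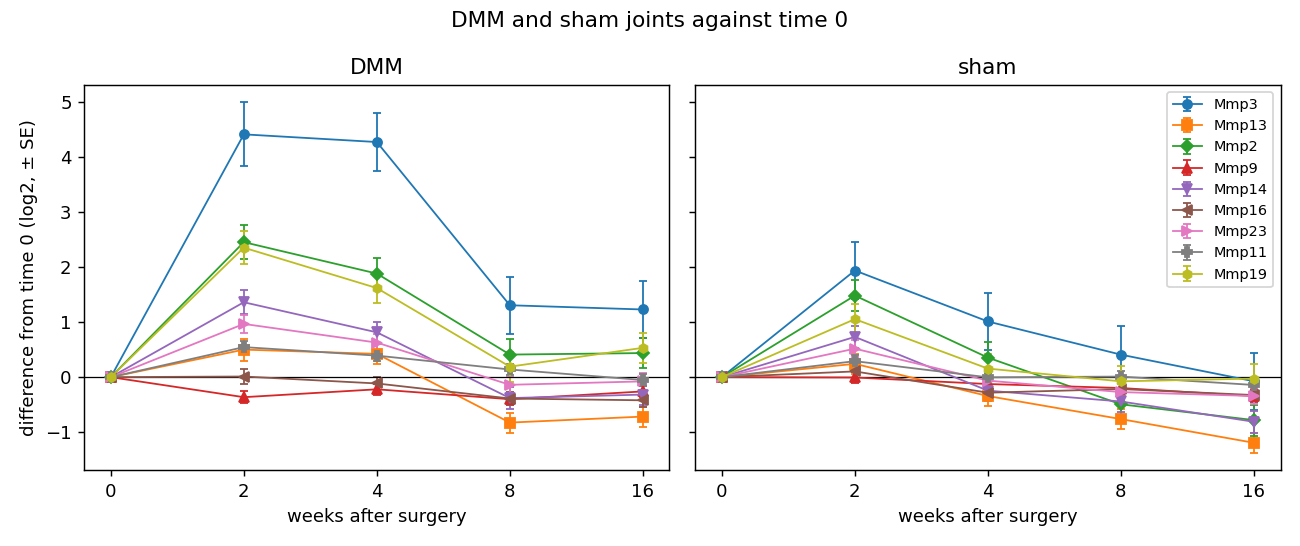
Difference from time 0 (vertical axis, log2, ± standard error) of the 9 genes in DMM joints (left) and sham joints (right) by weeks since surgery. Mmp3 and Mmp2 peak at 2 weeks in both panels, and Mmp13 lies below time 0 at 8 and 16 weeks in both.

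Late after surgery Mmp13 was below its level at time 0 in both kinds of joint. At 16 weeks it read 12.51, 12.09 and 12.38 in sham pools, against 13.37, 13.43 and 13.75 at time 0. The groups were well apart, and Mmp13 fell by 1.19 on the log2 scale (SE 0.18, adjusted p = 0.00041), a call that remained with any 1 pool left out. Mmp14 fell by 0.81 in sham joints at 16 weeks (SE 0.20, adjusted p = 0.0166), and 4.93% of genes past the filter were lower there. The Mmp14 call was lost without sham pool 1 or 3 and without time 0 pool 1 or 3, and without time 0 pool 2 Mmp9 was called besides Mmp13 and Mmp14. For 6 of the 7 genes all sham pools at 16 weeks lay below all time 0 pools (Mmp2, Mmp9, Mmp13, Mmp14, Mmp16 and Mmp23), against 16.3% of genes past the filter.

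After DMM Mmp13 fell by 0.72 at 16 weeks relative to time 0 (SE 0.18, adjusted p = 0.0448, with 1.34% of genes lower) and by 0.82 at 8 weeks (SE 0.18, adjusted p = 0.0284, with 0.721% of genes lower). In sham joints at 8 weeks it fell by 0.76 (SE 0.18, adjusted p = 0.0483, with 0.556% of genes lower). The call at 16 weeks after DMM and that in sham joints at 8 weeks were lost with any 1 pool left out, and the call at 8 weeks after DMM remained only without the third DMM pool. DMM and sham comparisons with time 0 share the same 3 time 0 pools. The ages differ too, since time 0 mice were 12 weeks old and those at 16 weeks were 28 weeks old, so that age and time after surgery cannot be told apart. Mmp3 was not called lower in sham joints at 16 weeks (adjusted p = 0.944), reading 8.47, 8.72 and 9.06 in sham pools at 16 weeks, against 9.21, 8.68 and 8.58 at time 0, groups that overlap.

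Within the family, the 3 highest condition means of 7 genes (all but Mmp9 and Mmp16) ran in the order DMM at 2 weeks, DMM at 4 weeks and sham at 2 weeks. Neighbours in this order overlapped in their pools, except DMM at 2 weeks and at 4 weeks for Mmp2 and Mmp14, and DMM at 4 weeks and sham at 2 weeks for Mmp3. Over the 26 arrays Mmp14 and Mmp23 correlated at 0.965, Mmp3 and Mmp19 at 0.937, and Mmp2 and Mmp14 at 0.934. Mmp9 had its highest mean at time 0 (13.45 ± 0.13, SD, n = 3), and its correlation with the other 8 genes lay between -0.189 and 0.53. These are descriptions over arrays that share conditions.

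The genes whose signal ran most like each member over the 26 arrays were found among all tested genes outside the family. For Mmp2 they were Dpt (Pearson r = 0.987), Antxr1 (0.987) and Mxra8 (0.982), for Mmp3 Gpm6b (0.974), C1ra (0.964) and C1s1 (0.95), and for Mmp13 Cdh11 (0.956), Ppic (0.944) and Tnc (0.944). For Mmp14 they were Atp8b2 (0.99), Ppic (0.989) and Fndc3b (0.987), and for Mmp23 Bmp1 (0.979), Slc38a10 (0.977) and Mrc2 (0.976). For the dim genes they were Ccn5 (0.976), Tnfaip6 (0.974) and Dclk1 (0.974) with Mmp19, and Tcf4 (0.917), Dact1 (0.913) and Enpp3 (0.912) with Mmp11. The likeness was weaker for Mmp9, with Snx10 (0.883), Sp7 (0.823) and Lifr (0.82), and for Mmp16, with Sgms2 (0.896), Cgref1 (0.893) and Cdh2 (0.887). After the condition means were taken out, these 27 correlations lay between 0.678 (Enpp3 with Mmp11) and 0.974 (Ppic with Mmp14). The arrays share conditions and tissue make-up, so that these values are descriptions with no test.

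Mmp3 and Mmp13 lie in a cluster on chromosome 9 that holds 10 of the 23 mouse MMP genes in RefSeq, in the order Mmp13, Mmp12, Mmp1b, Mmp3, Mmp1a, Mmp10, Mmp8, Mmp27, Mmp20 and Mmp7. Apart from these 2, no gene of the cluster with a probe set was called higher in DMM joints at 4 weeks. In the fit of all probe sets 9.17% of all genes were higher there. Of those other cluster genes only Mmp12 and Mmp8 passed the brightness filter. Mean log2 signals of Mmp1a, Mmp1b, Mmp20, Mmp10 and Mmp7 ran from 5.00 to 7.61, where the lack of a higher call says little. Whether the rise was particular to Mmp3 and Mmp13 within the cluster was not tested. Of 14 other MMP genes listed, 9 had a probe set of their own and 3 passed the brightness filter. At 4 weeks none of these 3 rose in DMM joints and 1 fell, beside 13.2% of genes past the filter higher and 7.09% lower. The lower one was Mmp8, the neutrophil collagenase (-0.32 ± 0.10, adjusted p = 0.0307), while Mmp12, the macrophage elastase (0.21 ± 0.25, adjusted p = 0.59), and Mmp24 (-0.19 ± 0.095, adjusted p = 0.158) were not called. In the fit of all probe sets the interstitial collagenase Mmp1a, next to Mmp3, had a ratio of -0.70 (adjusted p = 0.00713) at a mean log2 signal of 5.00, below the filter. Mmp1b, on the other side of Mmp3, had a ratio of 0.052 (adjusted p = 0.883).

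Of 7 inhibitor genes 4 passed the filter, and 2 of these were higher in DMM joints and none was lower, where 13.2% of genes past the filter were higher. Timp1, an inducible inhibitor, had a ratio of 1.86 ± 0.40 (adjusted p = 0.00419), and Timp2, which binds Mmp14 and helps it to activate the Mmp2 proenzyme, one of 0.69 ± 0.17 (adjusted p = 0.00906). Timp3, which stays bound to the matrix, read 0.16 ± 0.17 (adjusted p = 0.518). Among proteases that activate MMPs or belong to the plasmin system, 15 were listed and 10 tested, of which 4 were higher and none was lower. These were Htra1 (1.19 ± 0.24, adjusted p = 0.00295), Pcsk5 (1.09), Plat (0.77) and Ctsl (0.58), while the cathepsins Ctsb (0.051) and Ctsk (0.40) were not called. Htra1, a secreted serine protease, was also called at 16 weeks (1.46 ± 0.24, adjusted p = 0.014), when no member was.

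The lists of related genes and markers were chosen with earlier results of these data known. Their counts beside shares of all genes are therefore descriptions only. The study itself names Ddr2, Sdc4 and Timp2 among its up-regulated genes. Of 25 listed genes that are known to induce MMPs or to drive their transcription, 18 were tested, and 11 rose and none fell in DMM joints at 4 weeks, where 13.2% of genes past the filter were higher. They included the AP-1 components Fos (1.29 ± 0.29, adjusted p = 0.00573), Fosl2 (0.68 ± 0.12, adjusted p = 0.00107), Junb (0.68) and Jun (0.33). The AP-1 sequence TGANTCA stands in the Mmp3 and Mmp13 windows above. It is absent from those of Mmp11, Mmp14 and Mmp23, which were called higher too. The part of AP-1 in these changes was not tested. Cytokine receptors of the list that rose were Osmr (1.09), Il1r1 (0.60) and Il6st (0.46). Ddr2, a collagen receptor (0.80), Sdc4 (0.76), Epas1 (0.62) and Ets2 (0.30) were called too, and the transcription factors Cebpb (0.23) and Ets1 (-0.019) were not. At 8 weeks none of the 18 genes was called, and Fos read 0.17 ± 0.29. Of 15 matrix proteins that MMPs cut, 9 were higher at 4 weeks and none was lower. In sham joints 11 had fallen below time 0 by 16 weeks, where 4.93% of genes past the filter were lower. Median log2 ratios at 4 weeks were -0.19 over the other MMP genes, 0.44 over the inhibitors, 0.40 over the activators, 0.40 over the inducers and 0.54 over the matrix proteins, beside -0.021 over all genes past the filter.

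**Figure D4:**
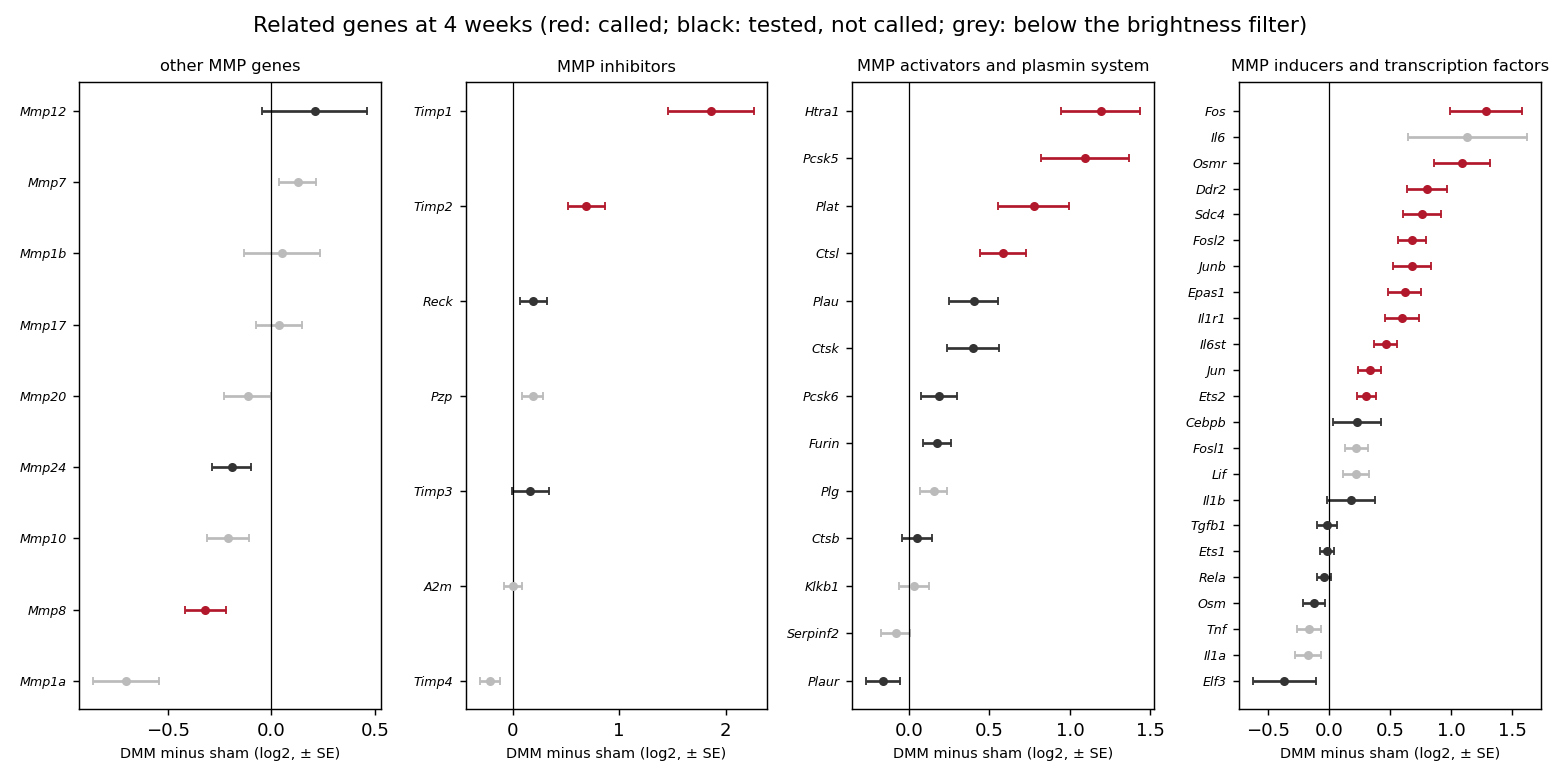
Log2 ratio of DMM to sham joints at 4 weeks (horizontal axis, ± standard error) for other MMP genes, MMP inhibitors, activators with the plasmin system, and inducers with transcription factors, with called genes in red, tested genes not called in black and genes below the brightness filter in grey. Called genes are 1 of 3 other MMP genes (lower) and 2 of 4 inhibitors, 4 of 10 activators and 11 of 18 inducers (all higher).

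Markers of several tissues differed between DMM and sham joints at 4 weeks, some higher and some lower. Markers of the labelled tissues were all well above the brightness filter, with mean log2 signals of 13.39 for Comp and 12.85 for Col2a1 (cartilage), 13.88 for Col1a1 and 13.35 for Ibsp (bone), and 14.75 for Prg4 (synovium). Of 12 synovial and fibrous tissue markers, 8 rose in DMM joints at 4 weeks, where 13.2% of genes past the filter were higher and 7.09% lower, and the mean level of the list was 12.31 to 12.88 in DMM pools, against 11.58 to 11.99 in sham pools. The lists of matrix proteins that MMPs cut and of MMP activators lay apart at all 4 times too. At 8 weeks the matrix proteins read 12.96 to 13.12 in DMM pools, against 12.72 to 12.93 in sham pools. The activators then read 9.67 to 9.71 in DMM pools, against 9.59 to 9.66 in sham pools. The fibrous tissue list also lay apart at the other times, as Mmp2, Mmp3 and Mmp19 did. It was 12.84 to 12.88 in DMM pools, against 11.95 to 12.62 in sham pools, at 2 weeks, 11.73 to 11.95 in DMM pools, against 11.36 to 11.66 in sham pools, at 8 weeks, and 11.71 to 11.92 in DMM pools, against 11.06 to 11.33 in sham pools, at 16 weeks. Of 11 chondrocyte markers 1 was higher (list level 11.40 to 12.06 in DMM pools, against 10.98 to 11.35 in sham pools), of 6 endothelial markers 4 were higher, and of 5 fat cell markers 4 were lower (9.49 to 9.75 in DMM pools, against 10.17 to 10.22 in sham pools). Of 10 neutrophil markers 3 were lower, among them Mmp8, which also stands in the list of other MMP genes (list level 14.06 to 14.29 in DMM pools, against 14.36 to 14.49 in sham pools). Of 7 osteoclast markers 1 was higher and of 10 macrophage markers 1 was lower. The part of these tissues in the changes of the 9 genes was not tested, and several markers stand in more than 1 list.

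No skeletal muscle marker of 10 was called at 4 weeks, yet the list level was 10.94 to 12.05 in DMM pools, against 12.38 to 12.49 in sham pools, and ranged from 9.59 to 13.31 among sham pools at 2 weeks. At 8 weeks it was 11.14 to 12.16 in DMM pools, against 12.50 to 13.30 in sham pools, groups that were again apart. With the muscle level as a covariate the same 5 genes past the filter were called at 4 weeks, with ratios of 3.09 for Mmp3, 1.35 for Mmp2, 0.88 for Mmp14, 0.65 for Mmp13 and 0.60 for Mmp23. The fall of Mmp13 in sham joints at 16 weeks came with lower cartilage and bone markers. Of genes past the filter 4.93% were lower there than at time 0. All 11 chondrocyte markers were lower there than at time 0 (list level 9.79 to 10.18 in sham pools, against 12.01 to 12.16 at time 0), as were all 6 osteoblast markers (10.94 to 11.34 in sham pools, against 11.89 to 12.10 at time 0) and all 4 tested hypertrophic chondrocyte markers. The part of these tissues in the fall of Mmp13 was not tested.

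**Figure D5:**
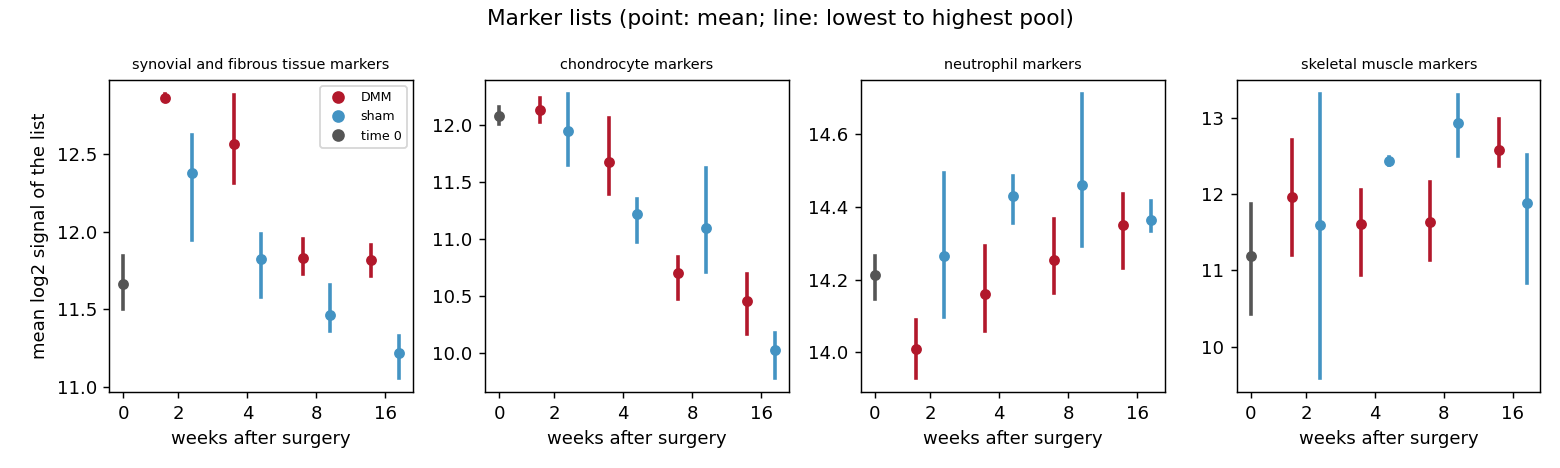
Mean log2 signal of 4 marker lists (vertical axis, own scale per list) by weeks since surgery, with points at the mean of the pools and lines from the lowest to the highest pool for DMM, sham and time 0. Fibrous tissue markers are higher in DMM than in sham pools at 4 weeks, muscle markers are lower, and chondrocyte markers lie below time 0 at 16 weeks in both.

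The filter of the study's methods asks for a signal log ratio of at least 0.5 in size in each replicate course at 1 or more times, and then for agreement between courses by correlation and distance. Without its step on detection p-values, the brightest probe sets of 2 of the 9 genes passed it in the DMM course (Mmp13 and Mmp14), as did those of 1.54% of all genes. None passed it in the sham course, where 1.53% of all genes did. A dimmer probe set each of Mmp14 and Mmp16 passed it in both courses. Mmp3 met the change and correlation steps in the DMM course, and all of its replicate courses lay farther apart than the distance limit of 0.6, at 0.988 to 2.57. Mmp2 and Mmp19 met the change step there and failed both of the others.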

How the data were processed

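RNA pools of medial mouse knee joint tissue were hybridised to 1-colour Affymetrix expression arrays of the mouse genome with labelling primed at the 3′ end. The deposited values are log2 signals per probe set, made comparable between arrays by the authors through systematic variation normalization (SVN), with tool versions not given in the sources used here. The detection p-values of the methods were not used here. Of 45101 probe sets, 34958 carried 1 gene symbol in the platform annotation, 932 several and 9211 none, and only those with 1 symbol were named. A linear model with 9 conditions was fitted to all 26 arrays (limma 3.58.1, R 4.3.3, 17 residual degrees of freedom), p-values were adjusted over all probe sets tested (Benjamini-Hochberg), and calls were made at an adjusted p under 0.05. By rule, all 9 members, the related genes called at 4 weeks or brightest in their list, and the 3 genes most like each member were named. The members and lists were chosen with earlier results of these data known. The fit was tested on simulated data. The number of arrays limits the precision, and pools of randomly chosen mice were the replicates.

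Pool numbers came from the labels, and the methods state that pools were joined into replicate courses at random. The deviations of DMM and sham pools with the same number correlated at -0.19 to 0.56, above 0.1 for 6 of 11 pairs, and for all 3 pairs only at 8 weeks. Alternatives changed the brightness filter, scaling, weights, variance model, covariates, pool block, conditions fitted and choice of probe set, and left out each pool in turn.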

Additional observations from a re-analysis of the deposited data

How the results depend on the processing

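Of 2457 log2 ratios of the 9 genes under other settings, 2232 kept their direction and their side of the threshold, 75 lost a call, 91 gained one and 59 changed sign, 33 of these with a pool left out. The call of 5 genes at 4 weeks, DMM against sham, remained in every left-out pool (5 to 5), with 6 under array weights (Mmp16 added) and 4 under a stricter brightness filter, where Mmp23 was not tested. The counts that moved are given here, and the cause was not tested. Counts over all probe sets moved with the setting as well and stand at the end of this section. For the 4-week minus 8-week effect they ran from 0 to 9324 over settings other than left-out pools. Member counts below are given without the share of all genes in each setting, so they are not results about the members. With a pool left out, 0 to 3662 probe sets were called for the 4-week minus 8-week effect. For sham at 2 weeks against time 0 the range was 2 to 3263. No member was called under any setting for sham at 4 weeks against time 0 or for the 4-week minus 2-week effect. For DMM against sham at 2 weeks the count of 1 became 0 with array weights or only the conditions compared, 2 with quantile normalization or the mean of all probe sets, 4 with the muscle score (in each of these 3 fits with Mmp9 called lower), and 0 to 4 with a pool left out. At 8 weeks the count of 0 became 1 with array weights and 2 with the conditions fitted alone and a replicate block. At 16 weeks it became 1 with array weights and 2 with the muscle score. For sham at 2 weeks against time 0 the count of 1 became 3 with the stricter filter or with the mean of probe sets, 4 with the muscle score, 0 with array weights or only the conditions compared, and 0 to 5 with a pool left out. For sham at 8 weeks it became 0 without a filter, with the muscle score, with the Gapdh ratio and with only the conditions compared, 4 with array weights, and 0 to 0 with a pool left out. For sham at 16 weeks the count of 2 became 6 with array weights, 1 with the Gapdh ratio, 4 with only the conditions compared, and 1 to 3 with a pool left out. For DMM at 4 weeks against time 0 the count of 4 became 2 with the Gapdh ratio or only the conditions compared, and 2 to 4 with a pool left out. At 8 weeks after DMM the count of 1 became 4 with array weights, 0 with the Gapdh ratio, 2 with the muscle score, quantile normalization or only the conditions compared, and 0 to 1 with a pool left out. At 16 weeks after DMM it became 0 without a filter, with the muscle score or with the Gapdh ratio, 4 with array weights, 3 with only the conditions compared, and 0 to 0 with a pool left out. The difference of the 4-week and 8-week effects went to 6 genes with array weights, 4 with the muscle score and 0 to 4 with a pool left out, and that of the 16-week and 8-week effects to 1 with array weights (Mmp13). The array weights did not reach their convergence tolerance, and Mmp16 was not tested with the mean of its probe sets.

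With the pool number as a replicate block, the counts of genes called changed to 2 for DMM at 8 weeks against time 0 and to 1 (Mmp14) for the 4-week effect minus the 8-week effect, and moved in no other comparison by over 1.5 times. By the methods the pools were joined at random at all times.

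None of the ratios that changed sign was called in either fit. With the muscle score they were -0.21 for Mmp14 and -0.0061 for Mmp23 (DMM against sham, 8 weeks), 0.032 for Mmp9 (sham at 2 weeks against time 0), 0.091 for Mmp11, 0.017 for Mmp14 and 0.070 for Mmp23 (sham at 4 weeks), 0.11 for Mmp19 (sham at 8 weeks), 0.061 for Mmp3 and 0.050 for Mmp19 (sham at 16 weeks), 0.053 for Mmp11 and 0.071 for Mmp23 (DMM at 16 weeks against time 0), and 0.11 for Mmp11 (16-week minus 8-week effect). With array weights they were 0.093 for Mmp9 (sham at 2 weeks), 0.031 for Mmp19 (sham at 8 weeks), 0.15 for Mmp3 and 0.047 for Mmp19 (sham at 16 weeks), and -0.019 for Mmp16 (DMM at 2 weeks against time 0), where the replicate block gave -0.018. With the Gapdh ratio they were 0.013 for Mmp9 (sham at 2 weeks), -0.011 for Mmp11 (sham at 8 weeks), 0.028 for Mmp19 (sham at 16 weeks), and 0.035 for Mmp11 and -0.017 for Mmp16 (16-week minus 8-week effect). With quantile normalization, which moved the median of all ratios by at most 0.025, they were 0.048 for Mmp9 (DMM against sham, 4 weeks), 0.0078 for Mmp13 (DMM against sham, 8 weeks) and 0.017 for Mmp11 (sham at 4 weeks).

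With 1 pool left out, ratios crossed 0 for Mmp13 at 2 weeks (-0.035 to 0.44), Mmp14 at 8 weeks (-0.032 to 0.13) and Mmp16 at 16 weeks (-0.17 to 0.0055) in DMM against sham. In sham against time 0 this held for Mmp9 at 2 weeks (-0.16 to 0.077), for Mmp11 (-0.070 to 0.046), Mmp19 (-0.053 to 0.38) and Mmp23 (-0.20 to 0.036) at 4 weeks, for Mmp11 (-0.057 to 0.070) and Mmp19 (-0.16 to 0.015) at 8 weeks, and for Mmp3 (-0.23 to 0.12) and Mmp19 (-0.11 to 0.065) at 16 weeks. In DMM against time 0 it held for Mmp16 at 2 weeks (-0.038 to 0.051) and Mmp23 at 16 weeks (-0.18 to 0.022), and between effects for Mmp11 (-0.081 to 0.021) and Mmp16 (-0.035 to 0.19), 16 minus 8 weeks, and Mmp19 (-0.21 to 0.42), 4 minus 2 weeks. Counts of probe sets called over all settings other than left-out pools lay between 2078 and 9647 for DMM against sham at 4 weeks (4298 in the fit reported) and between 0 and 1688 at 2 weeks (559). For DMM against sham they lay between 0 and 2407 at 8 weeks (1) and between 12 and 298 at 16 weeks (14). The 4-week minus 8-week effect gave 0 to 9324 (358), and the 16-week minus 8-week effect 0 to 1858 (0). Sham against time 0 gave 0 to 1892 at 2 weeks (373) and 2 to 4169 at 8 weeks (200). At 16 weeks it gave 717 to 5507 (1307). DMM against time 0 gave 355 to 9761 at 4 weeks (1839) and 39 to 1912 at 8 weeks (167). At 16 weeks it gave 191 to 2038 (390).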
